A study of Sus scrofa with 6 samples.

Results

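The deposited gene table of this pig (Sus scrofa) embryonic stem cell series holds 6790 genes with the biotype lncRNA among 31908 genes. The 155 described here had at least 1000 read counts summed over the 6 pig embryonic stem cell libraries, and 2 further lncRNA genes above that minimum were left out by the rule that chose them. The members were chosen by their summed read counts, so their abundance is described without a test. Differences between lines were tested, but the rule was not free of them for 17 members that reached the minimum only through the line in which they were high, judged by scaling the counts of the other 4 libraries to the depth of all 6. These include ENSSSCG00000041123, ENSSSCG00000041190, ENSSSCG00000048325, TINCR, GPRIN3, LOC102166005 and ENSSSCG00000050217. ENSSSCG00000042641, ENSSSCG00000048556 and ENSSSCG00000045426 are also among them. The line differences of all of these are given as a description.

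Long noncoding RNAs are transcripts without a long protein-coding reading frame, usually capped, spliced and polyadenylated like messenger RNAs. Some act on chromatin near the site where they are made, as in X-chromosome dosage compensation and at imprinted gene clusters, and others arise beside the promoter of a coding gene and follow its transcription. In pluripotent cells of human and mouse, many are expressed in a cell-type-restricted way, and divergent pairs of a noncoding and a coding gene are common around developmental transcription factors.

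All 6 libraries came from wild-type embryonic stem cells, as bulk RNA sequencing of poly(A) RNA with a stranded kit. The titles of all 6 carry the term FIW after the cell type, and its meaning is not given here. Lines PA_1 and PA_3 are parthenogenetic, so they carry no paternal genome, and line IVF_1 came from in vitro fertilisation, with 2 libraries per line. Each origin is thus represented by 1 fertilised line and 2 parthenogenetic lines, and a difference between lines cannot be told apart from a difference of embryo origin. The labels do not say that the libraries of a line came from separate cultures, so p-values may measure technical spread only.

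Library totals ranged from 15248306 to 28575817 read counts, and between 154 and 155 of the 155 genes had a count in each library. The 8 epiblast markers found of 10 listed summed to between 3402 and 3662 CPM, the read count scaled by library size, in the PA libraries and to 5399 and 5467 CPM in IVF_1. POU5F1, the pluripotency homeobox gene, stood between 609 and 881 CPM in every library. The sums of 10 fibroblast markers (130.2 to 166.0 CPM in the PA libraries, 217.6 and 220.0 CPM in IVF_1) and of 7 trophoblast markers (599 to 816 CPM, against 1290.3 and 1431 CPM) were also higher in IVF_1. Most of the fibroblast difference was in TAGLN, an actin-binding protein (54.8 to 93 CPM, against 137.9 and 135.8 CPM), and the other 9 markers summed to 67.9 to 75.4 CPM in the PA libraries and 82.1 and 81.8 CPM in IVF_1. The collagen COL1A1 was at 32.5 to 37.8 CPM and at 39.6 and 37.3 CPM, and the surface protein THY1 was highest in PA_3. Nearly all of the trophoblast sum came from the keratins KRT8 and KRT18, and the trophoblast factor CDX2 was at 0 in all 6 libraries. The 6 hypoblast markers summed to 7.8 to 30.7 CPM, highest in PA_3 through FOXA2 alone (18.8 and 24.7 CPM there, 3.71 to 5.1 CPM elsewhere). Without FOXA2 they summed to 5.92 and 5.98 CPM in PA_3, 4.24 and 4.09 CPM in PA_1, and 11 and 11.2 CPM in IVF_1. In bulk samples, fewer cells of a type and less RNA per cell cannot be told apart, and the part of these markers in the results below was not tested. Mitochondrial genes took 12.2% of the counts of each PA_3 library and between 7.67% and 9.65% elsewhere, which lowers the TPM of every other gene in PA_3. Fold changes below therefore rest on CPM after TMM scaling.

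The label lncRNA held for part of the list. By position or by the gene ID quoted in the table's description, 27 of the 155 were annotated by RefSeq as protein-coding genes, and the spans of 58 more overlapped a RefSeq protein-coding gene. Together these were 54.8% of the genes and held 44.4% of their counts. Only RefSeq noncoding genes lay under 36, no RefSeq gene lay under 24, and 10 sat on unplaced scaffolds where overlap was not looked up. The RefSeq table used gives no strand, so an overlap can be sense or antisense. No member overlapped a protein-coding gene of the deposited table itself, but 18 members, in 9 pairs, overlapped another member on the opposite strand. How reads on opposite strands were assigned is not given in the sources used here, so the counts of these 9 pairs are uncertain.

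Members with a coding counterpart included HDLBP, an RNA-binding protein with many KH domains, COTL1, which binds actin filaments, PHF20, a chromatin reader, TIMM13, an import chaperone of the mitochondrial inner membrane, and TBCC, a tubulin-folding cofactor. Of 57 names of well-studied lncRNAs looked up, 1 was matched, the member TINCR, which in human is induced during keratinocyte differentiation. A name was available for 41 of the 155 members. The rest are called here by their Ensembl ID and their nearest protein-coding gene, with coordinates of the build Sscrofa11.1.

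Per transcript length, mean abundance over the 6 libraries ran from 2.19 to 3375.71 TPM with a median of 14.21 TPM. There were 52 members under 10 TPM, 89 between 10 and 100 TPM, and 14 at 100 TPM or more. The median was 22.88 TPM for members described as RefSeq protein-coding genes, 16.16 TPM for those over RefSeq noncoding genes only and 10.06 TPM for those with no RefSeq gene beneath them. All 155 together took 0.631% to 1.056% of a library's counts.

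**Figure D1:**
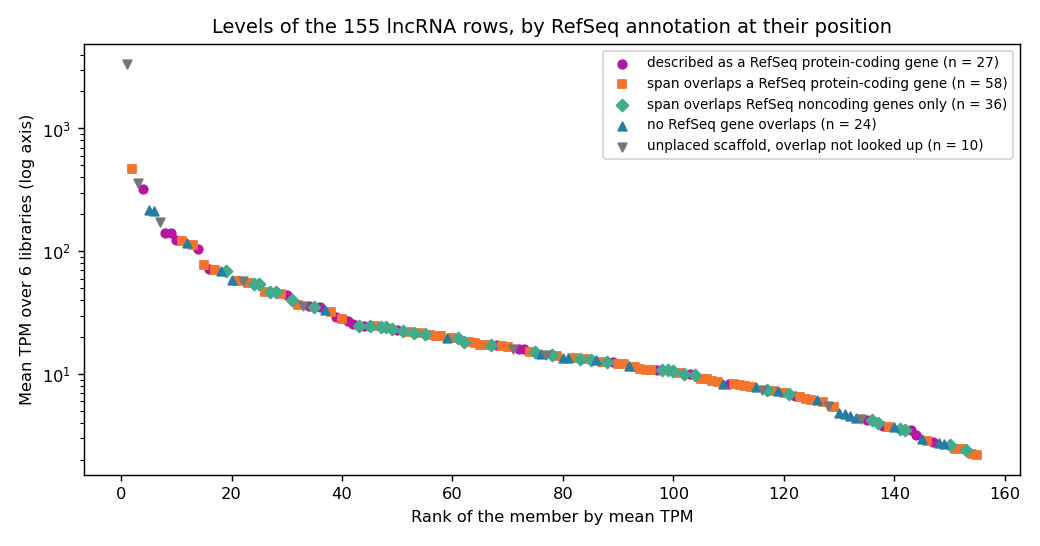
Mean TPM over the 6 libraries (log axis) of each of the 155 members against its rank, with 1 point per gene and a colour for each kind of RefSeq annotation at its position. One gene on an unplaced scaffold stands at 3375.71 TPM, well above the next at 472.28 TPM, and all 5 kinds of annotation are spread along the curve.

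The most abundant member, ENSSSCG00000041596, lay on the unplaced scaffold AEMK02000695.1 from 11543 to 13129 on the minus strand and alone held 27.2% of the members' counts. It had 3919 and 3306 CPM in PA_1, 1088.5 and 871 CPM in PA_3, and 2130.4 and 1640.0 CPM in IVF_1. The 3 lines did not overlap, with PA_1 highest and PA_3 lowest. The log2 difference between PA_1 and PA_3 was 1.88 (SE 0.17, adjusted p = 0.00039), and against IVF_1 it was 0.94 in PA_1 (adjusted p = 0.0085) and -0.94 in PA_3 (adjusted p = 0.0046). Both differences from IVF_1 missed the threshold when a PA_1 library was left out (adjusted p = 0.1 and 0.19 for PA_1, 0.07 and 0.074 for PA_3), and that of PA_3 also when the PA_1 libraries were not in the fit (adjusted p = 0.069). The unnamed coding gene 989 bp away on the same strand, ENSSSCG00000034846, was in the same order, with 78.1 and 63.9 CPM in PA_1, 20.4 and 17.2 CPM in PA_3, and 47.1 and 48.2 CPM in IVF_1. Without this 1 member, the members' share of counts was 0.649% and 0.652% in the libraries of PA_1, 0.545% and 0.551% in those of PA_3, and 0.553% and 0.565% in those of IVF_1.

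Second was ENSSSCG00000044572 (7:23932542-23935874, plus strand, 472.28 TPM), whose span overlaps the RefSeq gene HSPA1L, a heat-shock chaperone of the HSP70 family. It had 350.5 and 361.5 CPM in PA_1, 349.9 and 343 CPM in PA_3, and 197 CPM in both IVF_1 libraries. All 4 PA libraries were above both IVF_1 libraries, by 1.81-fold in PA_1 (adjusted p = 3.3e-08) and 1.76-fold in PA_3 (adjusted p = 1.9e-08). ENSSSCG00000041875 and ENSSSCG00000041461 shared 841 bp on opposite strands of the scaffold AEMK02000489.1. The former had 452 and 313 CPM in PA_1, 116 and 93.2 CPM in PA_3, and 106.5 and 83.4 CPM in IVF_1, so that PA_1 stood apart from lines that overlapped each other. The latter differed less, at 275 and 273 CPM in PA_1, 156 and 209 CPM in PA_3, and 172 and 200 CPM in IVF_1.

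The 4 comparisons between lines used edgeR's quasi-likelihood test on 15197 genes, with Benjamini-Hochberg adjustment over all of them and an adjusted p under 0.05 as the threshold. The comparisons with IVF_1 share its 2 libraries and are not independent of each other. All 155 members passed the filter on low counts. Between PA_1 and IVF_1, 81 of the 155 members were called, or 52.3%, where 31.4% of all genes tested were called. Of these, 51 were higher and 30 lower in PA_1. Between PA_3 and IVF_1, 98 members were called (63.2%, against 52.1% of all genes), 52 higher and 46 lower in PA_3.

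Between the parthenogenetic lines, 66 members were called (42.6%, against 36.8% of all genes), 37 higher and 29 lower in PA_1. The mean of the PA lines differed from IVF_1 in 95 members (61.3%, against 44.8% of all genes), 57 higher and 38 lower. Protein-coding genes with the same minimum of counts were called in 34.2%, 56.7%, 39.1% and 49.6% of cases in the same order. The members' count between PA_1 and IVF_1 fell to 52, and that of the PA mean to 61, when IVF_1 replicate 1 was left out. Without the 17 members that reached the count minimum through 1 line, 48.6%, 61.6%, 40.6% and 60.1% of the other 138 were called, in the order PA_1, PA_3, between the PA lines and PA mean. Of the 822 other lncRNA genes tested, 21.9%, 38.2%, 29.1% and 31.0% were called in the same order.

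The median size of change of the members lay between that of coding genes with the same minimum of counts and that of the other lncRNA genes tested. The median absolute log2 difference of the members was 0.35 between PA_1 and IVF_1, 0.38 between PA_3 and IVF_1 and 0.24 between the PA lines, beside 0.18, 0.27 and 0.19 for protein-coding genes with at least 1000 counts and 0.54, 0.73 and 0.55 for the 822 other lncRNA genes. Called changes of at least 2-fold were found in 26 members between PA_1 and IVF_1 (16.8%, against 6.62% of all genes and 1.84% of those coding genes), 17 higher and 9 lower. Between PA_3 and IVF_1 they were also 26 (16.8%, against 13.1% and 4.94%), 14 higher and 12 lower. Between the PA lines there were 18 (11.6%, against 8.32% and 2.66%), 14 of them higher in PA_1, and for the PA mean there were 24 (15.5%, against 8.51% and 2.51%). The other lncRNA genes had higher shares past 2-fold in all 4 comparisons, at 17.9%, 29.4%, 20.7% and 22.3%. Without the 17 members that reached the minimum through 1 line, the members' shares were 13.8%, 13.8%, 10.1% and 13.0%. None of these differences between sets was tested. The signed median of the members was close to 0 in every comparison, between 0.06 and 0.10.

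The shares called against IVF_1 differed with the RefSeq annotation. Among the 85 members with RefSeq coding evidence, 45.9% were called between PA_1 and IVF_1 and 60.0% between PA_3 and IVF_1, and among the 60 without it 58.3% and 70.0%. At 2-fold the shares were 11.8% and 11.8% with coding evidence and 18.3% and 23.3% without it. This split was chosen after the values were seen, and the difference between the groups was not tested.

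**Figure D2:**
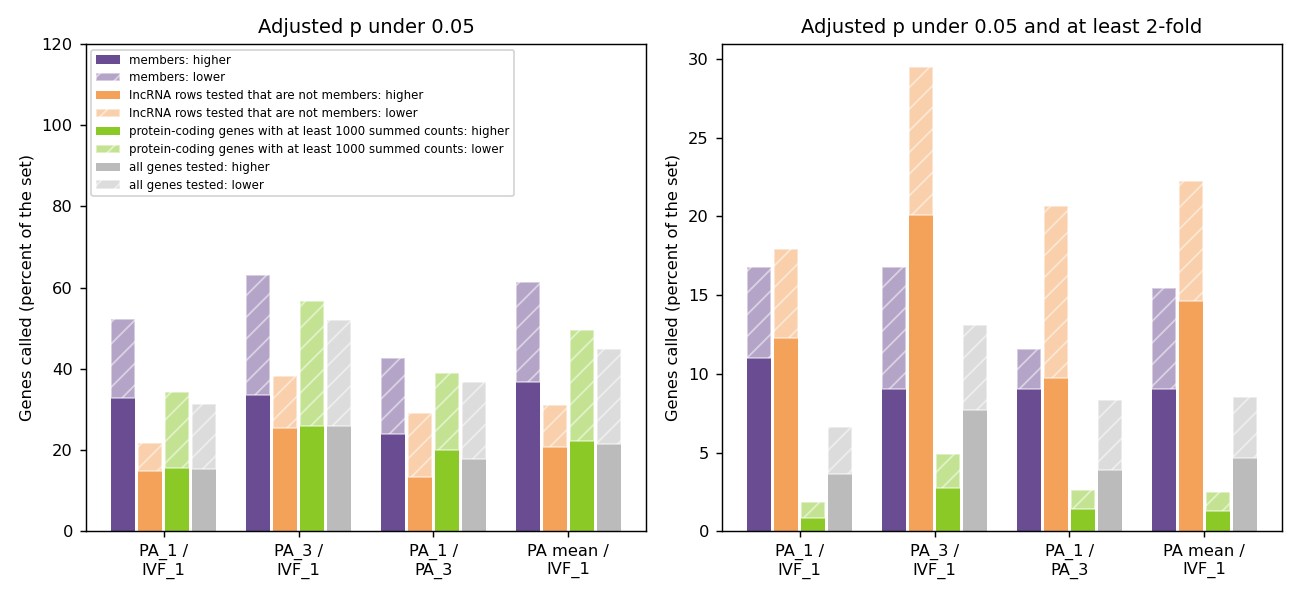
Percent of genes called in each of 4 comparisons, higher (solid) and lower (hatched) stacked, for the 155 members, for the 822 other lncRNA genes tested, for protein-coding genes with at least 1000 summed counts and for all genes tested; the panels differ in whether a 2-fold change was also required. The members' bars are the highest without the 2-fold requirement, and with it the other lncRNA genes are highest, at 17.9% between PA_1 and IVF_1 against 16.8% of members and 1.84% of the coding genes.

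Both IVF_1 libraries lay below the other 4 for 50 members (32.3%, against 22.5% of all genes tested) and above the other 4 for 41 (26.5%, against 23.2%). Both PA_1 libraries lay above the other 4 for 32 members (20.6%, against 12.3%) and below them for 20 (12.9%, against 11.7%). Both PA_3 libraries lay above the other 4 for 33 (21.3%, against 25.4%) and below them for 36 (23.2%, against 23.8%). The line means of 14 members spanned at least 4-fold and those of 37 spanned at most 1.2-fold. In 39 members no comparison between lines was called, and 116 were called in at least 1. These counts were made for the members only, so they have no share of all genes tested beside them and cannot be read as particular to the members.

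Members nearest imprinted genes are given first among the differences between the parthenogenetic lines and IVF_1. Imprinted genes are expressed from 1 parental copy, and PEG3, a zinc-finger gene, is expressed from the paternal copy in mammals. Distances to a neighbour are gaps between the annotated spans of the deposited table. ENSSSCG00000041123 lay 571 bp from PEG3 on the opposite strand (6:61281943-61284885, plus strand) and overlapped the RefSeq span of PEG3 itself. It had 33.5 and 31.4 CPM in IVF_1, 0.546 and 0.419 CPM in PA_3, and 0.0339 CPM and 0 in PA_1. The parthenogenetic libraries were all near 0, and PA_1 held 1 read count in its 2 libraries against 1035 in IVF_1. The ratio of IVF_1 to PA_1, by library total, was 1520.0 with an exact (Clopper-Pearson) 95% counting interval of 272 to 60094. PA_3 was lower than IVF_1 by a fitted log2 difference of -6.07 (SE 0.19). This member reached the minimum of 1000 counts only through IVF_1, which held 1035 of its 1060 counts, so its difference is a description and no p is given.

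PEG3 itself had 18.8 and 14.8 CPM in IVF_1, 0.126 and 0.305 CPM in PA_3, and 0.0339 and 0.0545 CPM in PA_1. Both rows were high in the fertilised line and close to 0 in both others. Whether the member is a part of PEG3 as RefSeq draws it or a separate transcript was not tested. No member lay beside another paternally expressed gene of the list with such a pattern. PLAGL1, also paternally expressed, was the nearest coding gene of ENSSSCG00000035578 (1:21231310-21235670) across a gap of 68372 bp. The span of ENSSSCG00000035578 overlaps another RefSeq protein-coding gene, SF3B5, so the row may belong to that gene. That member had 44.0 to 51.2 CPM in the PA libraries and 44.5 and 41.8 CPM in IVF_1 and was not called, whereas PLAGL1 was lower than IVF_1 in both PA_1 (log2 -3.07) and PA_3 (log2 -1.68; adjusted p = 1.9e-08 and 1.2e-06).

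Members whose nearest coding gene was RTL1 or DIO3, by gaps of 15923 to 488677 bp, went the other way. In human and mouse these coding genes sit in 1 imprinted cluster whose noncoding RNAs are made from the maternal copy. ENSSSCG00000047414 (7:121679563-121691199, minus strand, 15923 bp from RTL1) had 80.4 and 81.2 CPM in PA_1, 58.0 and 62.8 CPM in PA_3, and 27 and 23.8 CPM in IVF_1. It was 3.18-fold higher than IVF_1 in PA_1 (adjusted p = 5.5e-10) and 2.38-fold higher in PA_3 (adjusted p = 7.5e-09). The span of ENSSSCG00000050971 (7:121793194-121834231, plus strand, 81780 bp from RTL1) overlaps the RefSeq protein-coding gene LOC110261647 and the RefSeq lncRNA LOC110261648. This member had 185 and 204 CPM in PA_1, 190.3 and 132 CPM in PA_3, and 78.9 and 82.9 CPM in IVF_1. Its difference was 2.40-fold in PA_1 (adjusted p = 0.0027) and 1.99-fold in PA_3 (adjusted p = 0.0039), with no overlap between PA and IVF_1 libraries. It missed the threshold in both when a PA_1 library was left out (adjusted p = 0.11 for PA_1 and 0.088 and 0.089 for PA_3), and in PA_3 when the PA_1 libraries were not in the fit (adjusted p = 0.085).

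On the unplaced scaffold AEMK02000452.1, which carries DIO3 in the deposited table, ENSSSCG00000032587 lay 428184 bp from that gene and had 120.2 and 127 CPM in PA_1, 107.5 and 101 CPM in PA_3, and 37.3 and 38.0 CPM in IVF_1. That was 3.29-fold higher in PA_1 (adjusted p = 5.6e-11) and 2.77-fold higher in PA_3 (adjusted p = 1.6e-10). ENSSSCG00000041752 on the same scaffold, 488677 bp from DIO3, had 15.2 and 13.7 CPM, 12.4 and 12.5 CPM, and 3.51 and 3.40 CPM in the same order, or 4.2-fold and 3.60-fold higher. All 4 members therefore had their 4 PA libraries above both IVF_1 libraries, by 1.99-fold to 4.2-fold. The coding genes RTL1 (0.378 to 1.33 CPM) and DIO3 (0.19 to 1.21 CPM) were close to the limit of detection in every library. RTL1 was not called, and DIO3 was lower than IVF_1 in PA_3 (log2 -1.97, adjusted p = 0.0016) but not called in PA_1 (log2 -0.03, adjusted p = 0.96).

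**Figure D3:**
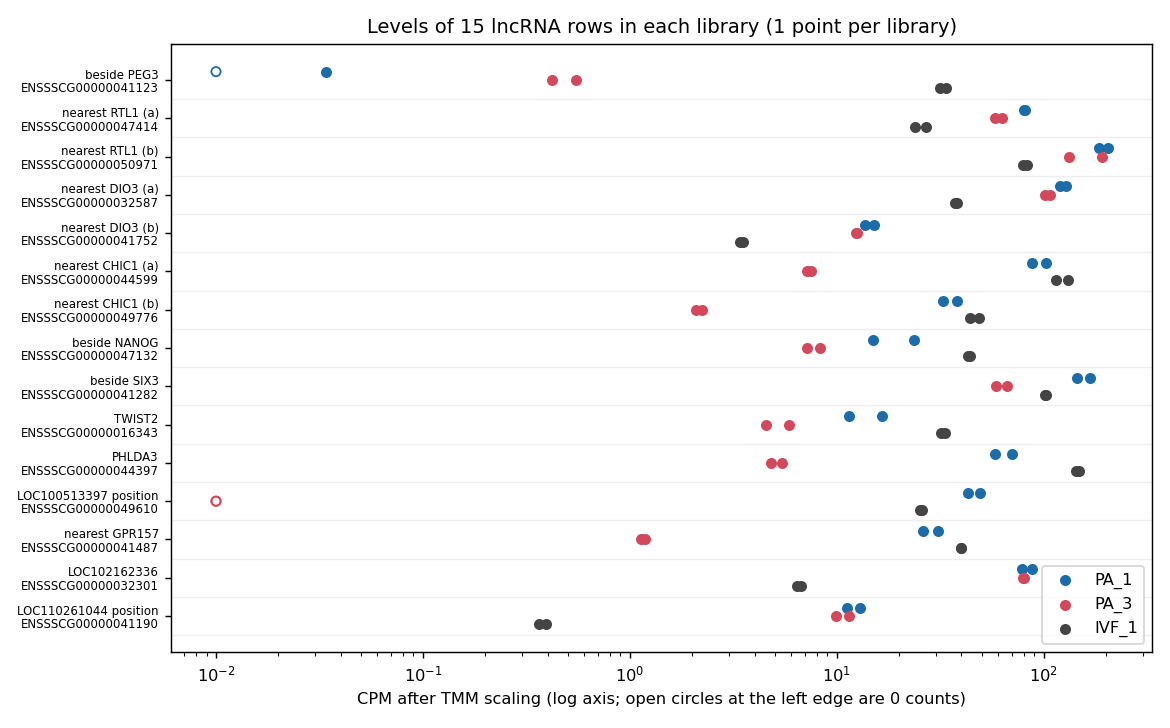
CPM after TMM scaling (log axis) of 15 members in each library, with 1 point per library, blue for PA_1, red for PA_3 and grey for IVF_1; open circles mark libraries with 0 counts. The row beside PEG3 is above 31 CPM in IVF_1 alone, the 4 rows nearest RTL1 and DIO3 are lowest in IVF_1, and PHLDA3 and the rows nearest CHIC1 and GPR157 are lowest in PA_3.

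Members away from these loci were also higher in both parthenogenetic lines, some of them by larger folds. LOC102162336 (ENSSSCG00000032301, 10:24956906-24976564), which RefSeq annotates as protein-coding, had 87.8 and 78.1 CPM in PA_1, 80.4 and 79.4 CPM in PA_3, and 6.41 and 6.68 CPM in IVF_1. It was 12.7-fold higher in PA_1 (adjusted p = 7.8e-14) and 12.2-fold higher in PA_3 (adjusted p = 5.3e-14), and the PA lines overlapped. ENSSSCG00000041190 (6:58549753-58558594), over the RefSeq lncRNA LOC110261044, had 12.9 and 11.2 CPM, 11.5 and 9.94 CPM, and 0.363 and 0.393 CPM. Its difference was the highest of any member in both PA lines, at 31.7-fold and 28.0-fold. The coding gene LOC110261043, 4402 bp from it on the same strand, was higher by 0.36 and 1.04 on the log2 scale.

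ENSSSCG00000048325 (10:14003382-14016935), with no RefSeq gene beneath it, had 6.17 and 6.49 CPM in PA_1, 13.9 and 15.8 CPM in PA_3, and 1.75 and 1.11 CPM in IVF_1. It was higher than IVF_1 by 4.36-fold in PA_1 and 10.3-fold in PA_3, and PA_3 was above PA_1 (log2 difference of PA_1 from PA_3 -1.24). TSPYL4 (ENSSSCG00000047800), a relative of nucleosome assembly proteins, was at 32.8 to 36.1 CPM in the PA libraries and at 17.2 and 16.4 CPM in IVF_1. LOC100517712 (ENSSSCG00000046817) was at 17.0 to 19.6 CPM in the PA libraries and at 6.22 and 7.20 CPM in IVF_1. TINCR (2:73401027-73411574) had 9.02 and 9.33 CPM in PA_1, 14.1 and 13.3 CPM in PA_3, and 4.96 and 4.52 CPM in IVF_1, so all 3 lines were apart. It was 1.93-fold higher in PA_1 and 2.89-fold higher in PA_3, and SAFB2, 4146 bp from it, was not called in PA_1 and lower in PA_3 (log2 -0.62).

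Members lower in both parthenogenetic lines included several whose level in PA_3 was far below that in PA_1. ENSSSCG00000047132 (5:62939184-62942439, plus strand) began 102 bp past the annotated end of NANOG, the homeobox factor of the pluripotent epiblast, on the same strand. No RefSeq gene lay beneath it, and whether it is a separate transcript or an extension of NANOG was not tested. The member had 43.8 and 43.2 CPM in IVF_1, 14.9 and 23.7 CPM in PA_1, and 7.14 and 8.30 CPM in PA_3. NANOG had 75.0 and 76.5 CPM, 25.9 and 35.3 CPM, and 9.95 and 11.3 CPM in the same order. Neither showed overlap between any lines, and IVF_1 was highest and PA_3 lowest for both. The member was below IVF_1 in PA_1 (log2 -1.2, SE 0.17, adjusted p = 0.00037) and in PA_3 (log2 -2.49, SE 0.19, adjusted p = 1e-06), beside log2 differences of -1.32 and -2.83 for NANOG (adjusted p = 5e-07 and 6.3e-11).

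PHLDA3 (ENSSSCG00000044397), known in human as a target of p53 that restrains the kinase AKT, had 149 and 143 CPM in IVF_1, 70.3 and 57.9 CPM in PA_1, and 4.83 and 5.41 CPM in PA_3. It was 2.27-fold lower in PA_1 (adjusted p = 3.9e-08) and 28.4-fold lower in PA_3 (adjusted p = 2.4e-15). TWIST2 (ENSSSCG00000016343), a basic helix-loop-helix regulator of mesenchymal cells, had 33.2 and 32.0 CPM in IVF_1, 11.5 and 16.5 CPM in PA_1, and 4.53 and 5.90 CPM in PA_3. Its decreases were 2.37-fold (adjusted p = 1.2e-05) and 6.22-fold (adjusted p = 3.2e-09). RefSeq annotates both as protein-coding. The sum of the fibroblast markers was highest in IVF_1, mostly through TAGLN, and lowest in PA_1. Whether it bears on the levels of PHLDA3 or TWIST2 was not tested.

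ENSSSCG00000045735 (18:50450274-50463847), whose span overlaps CCM2, was 1.89-fold lower in PA_1 and 2.10-fold lower in PA_3 (adjusted p = 3.6e-07 and 2e-08). LOC100517809 (ENSSSCG00000039815) had 36.7 and 37.4 CPM in IVF_1 against 21.3 and 22.7 CPM in PA_1 and 17.2 and 18.4 CPM in PA_3. Its neighbour PLPP2, a lipid phosphatase gene across a gap of 20143 bp, was also lower (log2 -0.61 and -1.03), beside -0.75 and -1.05 for the member.

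Some members stood at or near 0 in PA_3 and not in the other lines. ENSSSCG00000049610 (2:68654512-68657904), over the RefSeq lncRNA LOC100513397, had 49.2 and 43.1 CPM in PA_1, 25.7 and 25.1 CPM in IVF_1, and 0 counts in both PA_3 libraries. Against a limit of 3 counts over the PA_3 libraries it was at least 771-fold higher in PA_1 and at least 424-fold higher in IVF_1. PA_1 was also above IVF_1 (log2 0.87, adjusted p = 1.4e-05). It was the one member with 0 counts in both libraries of a line. LOC100738906, the coding gene 4497 bp away on the opposite strand, had 1.42 and 1.36 CPM in PA_1, 0.665 and 0.589 CPM in IVF_1, and 0.042 and 0.228 CPM in PA_3, the same order of lines.

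ENSSSCG00000041487 (6:69599362-69603622), with no RefSeq gene beneath it, had 39.6 and 39.8 CPM in IVF_1, 30.9 and 26 CPM in PA_1, and 1.13 and 1.18 CPM in PA_3. It was 34.1-fold lower than IVF_1 in PA_3 (adjusted p = 1e-13) and 1.39-fold lower in PA_1 (adjusted p = 0.0024). GPR157, the nearest coding gene on the same strand, was not called against IVF_1 in either line and was higher in PA_3 than in PA_1 (log2 difference of PA_1 from PA_3 -0.84, adjusted p = 0.0031).

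On the X chromosome, PA_3 was low for a pair of adjacent members nearest CHIC1. In human and mouse, CHIC1 lies beside the X-inactivation centre, a region rich in noncoding genes. ENSSSCG00000044599 (X:59283918-59286152, minus strand, 214.14 TPM on average) had 114.5 and 131.5 CPM in IVF_1, 88.1 and 103 CPM in PA_1, and 7.51 and 7.20 CPM in PA_3. ENSSSCG00000049776 (X:59288879-59293232, minus strand) had 48.8 and 44.2 CPM, 32.4 and 37.9 CPM, and 2.22 and 2.09 CPM in the same order. PA_3 was 16.7-fold and 21.5-fold below IVF_1 (adjusted p = 1.7e-14 and 1.6e-13) and 12.9-fold and 16.2-fold below PA_1. PA_1 was slightly below IVF_1 (log2 -0.37 and -0.41), and these differences missed the threshold when an IVF_1 library was left out (adjusted p = 0.11 and 0.12).

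Genes around this pair had other patterns. CHIC1 had 13.9 to 17.3 CPM in all 6 libraries and was not called in any comparison. A pair of members further along, chosen for mention after their values were seen, went differently: ENSSSCG00000047910 (X:59345994-59431613) had 36.8 and 35.0 CPM in PA_3 and 21.3 to 24.3 CPM in the other 4 libraries. ENSSSCG00000043604 (X:59541361-59608655) had 26.2 and 28.1 CPM in PA_3, 28.9 and 37.1 CPM in PA_1, and 21.2 and 24.6 CPM in IVF_1. Across the 524 X-linked coding genes tested, the median log2 difference from IVF_1 was 0.07 in PA_1 and 0.10 in PA_3, beside -0.01 in both for chromosomes 1 to 18. That count over the X chromosome was also added after the data were seen.

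The other X-linked members included TCEAL9 (319.25 TPM), a relative of transcription elongation factors, which stayed between 136.5 and 183.3 CPM. TMSB15A, an actin-binding thymosin, had 61.3 and 64.1 CPM in PA_1 and 19.1 to 25.3 CPM in the other libraries. ZNF275 had 13.7 to 24.6 CPM, and ENSSSCG00000042641 had 7.96 to 11.4 CPM in the PA libraries against 3.32 and 3.99 CPM in IVF_1. Of the 9 X-linked members, 5 were called above IVF_1 and 2 below it in PA_1, and 4 above and 3 below in PA_3. Of the X-linked coding genes tested, 21.4% were called higher and 13.2% lower in PA_1, and 32.6% and 18.1% in PA_3. Of all genes tested these shares were 15.3% and 16.1% in PA_1, and 25.9% and 26.2% in PA_3. The difference between these sets was not tested. The deposited table places 1 member, ENSSSCG00000037794, on the Y chromosome, nearest XG, a gene of the X-Y shared region in human. It had 6.92 and 9.87 CPM in PA_1, 13.0 and 14.1 CPM in PA_3, and 6.10 and 8.18 CPM in IVF_1, so it was also counted in parthenogenetic lines. It is named for its position, after its values were seen.

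Apart from the member beside PEG3, the lowest member in PA_1 relative to the other lines was ENSSSCG00000041231, on the scaffold AEMK02000425.1 (2055 to 113069, minus strand). It had 2.58 and 5.02 CPM in PA_1, 37.0 and 34.7 CPM in PA_3, and 51.0 and 56.2 CPM in IVF_1. PA_1 was 14.9-fold below IVF_1 (adjusted p = 1.4e-08) and 9.99-fold below PA_3 (adjusted p = 3.3e-08). ENSSSCG00000041985 shared 26929 bp with it on the opposite strand and had 11 and 17.3 CPM in PA_1, 14.8 and 17.1 CPM in PA_3, and 32.0 and 34.5 CPM in IVF_1. The PA lines overlapped for that one. The count of the former over that of the latter was 0.232 and 0.289 in PA_1 and between 1.60 and 2.50 in the other libraries.

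Several members stood on opposite sides of IVF_1 in the parthenogenetic lines. ENSSSCG00000041282 (3:95525556-95536264, plus strand) lay 120 bp from SIX3, a homeobox gene of the forebrain and eye, on the opposite strand, and overlapped the RefSeq span of SIX3 itself. It had 168 and 145 CPM in PA_1, 101 and 103 CPM in IVF_1, and 66.1 and 58.8 CPM in PA_3. SIX3 had 108 and 101 CPM, 64.1 and 69.2 CPM, and 48.0 and 44.0 CPM in the same order. The member differed from IVF_1 by 0.62 in PA_1 and -0.71 in PA_3 on the log2 scale (adjusted p = 2.7e-05 and 3.1e-06), and SIX3 by 0.65 and -0.54 (adjusted p = 1.1e-05 and 4.4e-05).

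ENSSSCG00000042107 (14:44234861-44246892), over the RefSeq lncRNA LOC102160252, had 82.1 and 83.0 CPM in PA_1, 32.9 and 36.1 CPM in IVF_1, and 30.1 and 26.6 CPM in PA_3. It was 2.39-fold above IVF_1 in PA_1 (adjusted p = 1.9e-08) and lower in PA_3 (log2 -0.28, adjusted p = 0.016), a call lost without PA_3 replicate 2 (adjusted p = 0.2) or IVF_1 replicate 2 (adjusted p = 0.17). TMSB15A was 2.50-fold above IVF_1 in PA_1 (adjusted p = 1.2e-08) and 1.30-fold below it in PA_3 (adjusted p = 0.0027). In the other direction, ENSSSCG00000050540 (8:73970666-74009492), whose span overlaps ANXA3, an annexin, had 21.4 and 22.1 CPM in PA_1, 26 and 27 CPM in IVF_1, and 43.2 and 43.1 CPM in PA_3. Its decrease in PA_1 (log2 -0.28, adjusted p = 0.032) missed the threshold under 9 of 13 alternatives, among them DESeq2 (adjusted p = 0.093), the replicate block (adjusted p = 0.051) and either IVF_1 library left out (adjusted p = 0.13 and 0.19).

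GPRIN3 (ENSSSCG00000039821) was above IVF_1 in both parthenogenetic lines, with 6.71 and 8.13 CPM in PA_1, 15 and 12.9 CPM in PA_3, and 5.56 and 5.17 CPM in IVF_1. PA_3 stood apart from the other lines, and the difference of PA_1 was small (log2 0.45).

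Other members changed little between the lines. TBCC stayed between 20.2 and 21.1 CPM in all 6 libraries, and its log2 difference from IVF_1 was -0.03 in PA_1 and -0.02 in PA_3, both with an SE of 0.10 and not called. COTL1, at 110.6 to 124 CPM, PHF20, at 88.4 to 101 CPM, and GNG7, a G-protein gamma subunit, at 28.5 to 32.7 CPM, were likewise called in no comparison. TMEM250 had 16.5 to 21.0 CPM and C14H22orf39 22.8 to 26.6 CPM. Among named members with small called differences, HDLBP was lower in PA_3 (log2 -0.16, adjusted p = 0.046) and missed the threshold under 6 alternatives. TIMM13 was lower than IVF_1 in PA_1 (log2 -0.33, not called without IVF_1 replicate 1, adjusted p = 0.078) and PA_3 (log2 -0.42), and LYRM2, a mitochondrial LYR-motif protein, was higher (log2 0.42 and 0.38). IER2, an immediate early gene, was lower (log2 -0.34 and -0.63), and its call in PA_1 was lost with DESeq2 (adjusted p = 0.085) and without either IVF_1 library (adjusted p = 0.27 and 0.059). TANK, an adaptor of NF-kB signalling, was between 15.1 and 17.8 CPM and was not called.

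The nearest protein-coding gene on the same chromosome by annotated start was found for 153 of the 155 members, and it was a different gene for nearly all of them (143 genes). The median distance between starts was 18946 bp and the median gap between spans was 6406 bp. In 70 pairs the gap was at most 5000 bp, in 36 at most 1000 bp and in 9 over 100000 bp. The neighbour was on the opposite strand in 85 pairs and on the same strand in 68. Both genes of 126 pairs were tested.

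Between PA_1 and IVF_1, both genes of a pair were called in the same direction in 18 pairs and in opposite directions in 4. Between PA_3 and IVF_1 these counts were 27 and 20. Between the PA lines the counts were 16 and 10. For the 650 other lncRNA genes tested with a tested neighbour, the counts were 44 and 10, 93 and 41, and 63 and 26 in the same order. The same direction thus held for 81.8%, 57.4% and 61.5% of the members' pairs, and for 81.5%, 69.4% and 70.8% of the others.

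Where the gap was at most 5000 bp, the pairs called in the same and in the opposite direction were 10 and 0 between PA_1 and IVF_1, 17 and 7 between PA_3 and IVF_1, and 11 and 7 between the PA lines. Where it was wider they were 8 and 4, 10 and 13, and 5 and 3. The split by gap was chosen after the values were seen and was not tested. It was made for the members only, so these counts cannot be read as particular to them. For 18 members, ENSSSCG00000041123 beside PEG3 and ENSSSCG00000041282 beside SIX3 among them, the RefSeq span of the neighbour itself covered part of the member, so both rows may belong to 1 RefSeq gene. Without these, the counts of the remaining 108 pairs in the same and in the opposite direction were 16 and 4 between PA_1 and IVF_1, 23 and 18 between PA_3 and IVF_1, and 12 and 8 between the PA lines. Those of them with a gap of at most 5000 bp gave 8 and 0, 13 and 6, and 7 and 5 in the same order. The members beside PEG3, NANOG and SIX3 had the same order of lines as their neighbours, and those nearest CHIC1, GPR157 and PLAGL1 did not. For NANOG too, whether both rows belong to 1 gene was not tested. LYRM2 and its neighbour MDN1, a ribosome assembly factor, were called in opposite directions, with MDN1 lower (log2 -0.41 and -0.67).

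**Figure D4:**
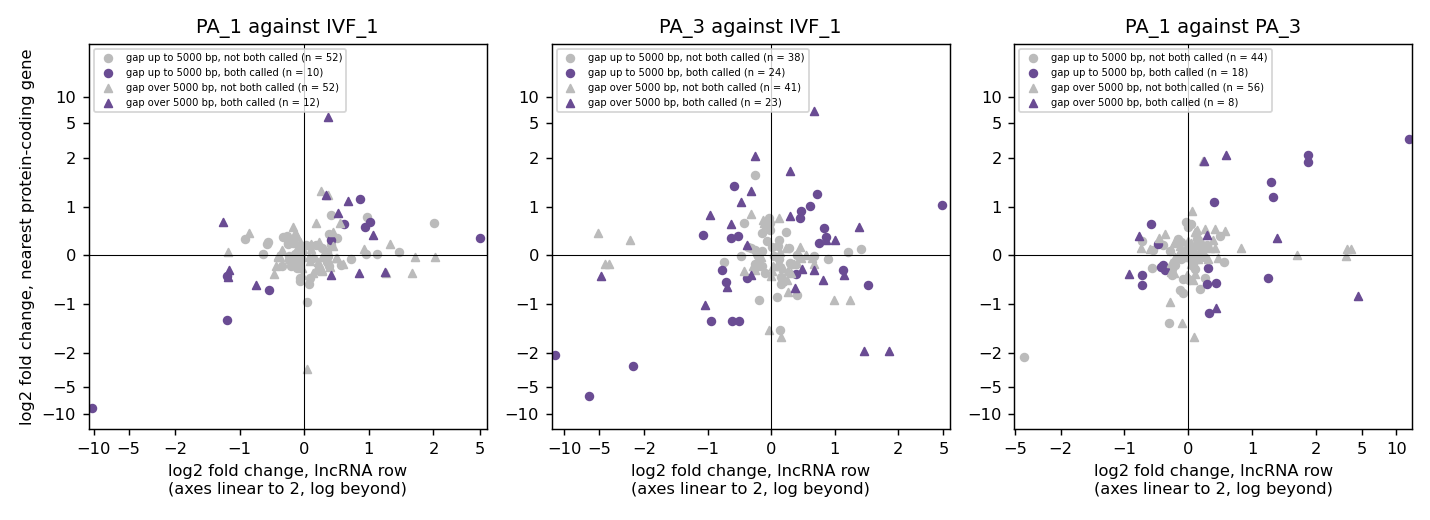
Log2 fold change of the nearest protein-coding gene against that of the member in 3 comparisons, for the 126 pairs tested, with axes that are linear to 2 and logarithmic beyond. Purple marks pairs in which both genes were called and circles mark gaps of at most 5000 bp. Between PA_1 and IVF_1, 10 such circles are purple, all in the quadrants where both genes moved the same way. The split by gap was made for the members only.

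The spread between libraries of a line sets what these comparisons can resolve. The median coefficient of variation of the members was 7.2% in PA_1, 4.6% in PA_3 and 4.7% in IVF_1, beside 6.3%, 3.8% and 3.5% for protein-coding genes with at least 1000 counts. It exceeded 15% for 32 members in PA_1 (20.6%, against 11% of those coding genes) and for 11 members in each other line. Of the 32 in PA_1, 23 were higher in replicate 2 and 9 in replicate 1. ENSSSCG00000044841 (1:54629462-54633653) is an example, with 42.6 and 66.2 CPM in PA_1, 72.6 and 75.4 CPM in PA_3, and 112 and 128 CPM in IVF_1. ENSSSCG00000048789 (8:110067097-110072600), whose span overlaps LARP7, had 14.1 and 22.3 CPM in PA_1, 32.3 and 28.4 CPM in PA_3, and 37.4 and 43.7 CPM in IVF_1.

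The 3 members just inside the minimum had 1015, 1026 and 1027 summed counts, and the 3 lncRNA genes just outside had 974, 993 and 996. Of the former, ENSSSCG00000048556, which lay 104 bp from GLRX5, a mitochondrial glutaredoxin, had 4.68 and 5.40 CPM in PA_1, 7.56 and 8.91 CPM in PA_3, and 11.5 and 11.4 CPM in IVF_1. ENSSSCG00000042233 had 6.33 to 8.95 CPM over the 6 libraries, and ENSSSCG00000045426 had 6.28 to 11 CPM. Just outside, ENSSSCG00000050067 had 5.40 to 10.3 CPM, ENSSSCG00000041434 had 4.52 to 11 CPM and ENSSSCG00000044694 had 6.71 to 8.70 CPM.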

How the data were processed

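Poly(A) RNA of 6 libraries (2 from each of 3 lines) was sequenced as 151 bp pairs. Per the submitters' processing notes, cutadapt 2.8 and STAR 2.7.1a were used with the build Sscrofa11.1. Neither the program that counted reads per gene nor its annotation version and strand option is given in the sources used here. The authors deposited read counts per gene, not normalised, and TPM, scaled by gene length to the same sum in each library; their deposited RPKM values were used only for their sums. The 54 other per-sample columns were not used. Totals ran from 15248306 to 28575817 counts per library.

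Counts were tested with edgeR 4.0.16 (R 4.3.3, limma 3.58.1): TMM scaling, filterByExpr by line, 1 coefficient per line over all 6 libraries (3 residual degrees of freedom, biological coefficient of variation 6.1%), robust quasi-likelihood test, two-sided, Benjamini-Hochberg adjustment over 15197 genes, threshold 0.05. CPM values are after TMM. With 2 libraries against 2, an exact permutation test cannot go below p = 0.333, so none was used. The procedure was tested on simulated data. DESeq2 1.42.0 and other settings served as alternatives. Intervals and limits from a count of 0 cover counting error only.

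The members and lists were chosen with earlier results of these data known. Named members were the 15 highest by TPM, up to 10 per direction and comparison by log2 fold change among called members without overlap between lines (for the PA mean up to 8, called the same way in both PA lines), those with a symbol, with 0 counts in both libraries of a line or nearest an imprinted gene, and the 3 on each side of the count minimum; exceptions are stated. Names came from the table, from NCBI gene IDs in its descriptions (29) and from a gene ID table (11). RefSeq annotation is of the assembly Sscrofa11.1. Promoter sequences were not analysed here.

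Libraries of different lines with the same number share only that number in the labels, and the numbers were used in an alternative fit.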

Additional observations from a re-analysis of the deposited data

Results flagged for a closer look

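In 9 members the parthenogenetic lines stood on opposite sides of IVF_1, with both differences called and the difference between PA_1 and PA_3 itself called by edgeR's quasi-likelihood test. The log2 difference of PA_1 from PA_3 was 1.88 for ENSSSCG00000041596, 1.33 for ENSSSCG00000041282 beside SIX3, 1.54 for ENSSSCG00000042107 and 1.70 for TMSB15A (ENSSSCG00000028695). It was -0.99 for ENSSSCG00000050540 and 1.25 for LOC102166005 (ENSSSCG00000038228). For ENSSSCG00000049610 the fitted value was 12.97, which depends on the prior count because PA_3 has 0 counts. It was 0.82 for ENSSSCG00000028322, whose span overlaps the antiproliferative gene BTG2, with 24.8 and 25.1 CPM in PA_1, 13.1 and 15.1 CPM in PA_3, and 20.9 and 18.5 CPM in IVF_1. It was 1.33 for ENSSSCG00000050217, with 12.6 and 13.1 CPM in PA_1, 5 and 5.18 CPM in PA_3, and 7.37 and 6.09 CPM in IVF_1. That member shares 8772 bp with LOC110261048 (ENSSSCG00000032594) on the opposite strand, so its reads are uncertain. PA_1 was highest in 8 of the 9. How many of all genes tested had this pattern was not counted, so these counts cannot be read as particular to the members. ENSSSCG00000050217 and LOC102166005 reached the count minimum only through PA_1, so their differences and calls here are a description and not a test. In 6 of the 9 a difference from IVF_1 missed the threshold under at least 1 of 13 alternatives, and in the other 3 (ENSSSCG00000041282, TMSB15A and ENSSSCG00000049610) none did. In the 6, the difference of PA_1 was lost under 9 alternatives for ENSSSCG00000050540, 3 for ENSSSCG00000028322 and 2 for ENSSSCG00000041596. That of PA_3 was lost under 5 for ENSSSCG00000050217, 3 each for ENSSSCG00000041596 and LOC102166005, 2 for ENSSSCG00000042107 and 1 for ENSSSCG00000028322. The difference between PA_1 and PA_3 was called under all 13 in all 9.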

How the results depend on the processing

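The members called (81 for PA_1 and 98 for PA_3 against IVF_1, 66 between the PA lines and 95 for the PA mean against IVF_1, the order kept below) ranged over size factors, library totals, the exclusion of mitochondrial genes and no filter on low counts from 82 to 85, 98 to 101, 66 to 70 and 94 to 95. DESeq2's Wald test gave 64, 82, 59 and 80. Fits of only the lines compared gave 77, 106 and 62. Leaving out 1 library at a time gave 52 to 83, 69 to 107, 51 to 74 and 61 to 102, the lone library of a line being assumed to vary like the others. The lowest values for PA_1 and the PA mean against IVF_1 came without IVF_1 replicate 1. With at least 2000 summed counts the counts were 49, 59, 48 and 57, and with at least a 2-fold change 26, 26, 18 and 24; both rules admit fewer genes by construction. Without the 17 members that reached the count minimum through 1 line, an alternative chosen after seeing the data, they were 67, 85, 56 and 83 of 138. Taking the neighbour by gap changed the pairs moving the same way from 18, 27, 16 and 23 to 19, 29, 15 and 21, and no member overlapped its neighbour, so leaving out overlaps changed none.

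The replicate block, with the library number as a term, gave 80, 98, 66 and 94 members. Deviations of same-numbered libraries correlated at -0.136 (PA_1 and PA_3), 0.086 (PA_1 and IVF_1) and -0.08 (PA_3 and IVF_1), so the numbers were not taken to pair the libraries.

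Of 3876 values of the 76 named members under these alternatives, 3627 kept direction and side of the threshold, 187 lost the call, 62 gained one and 0 reversed.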
